A study of Mus musculus with 36 samples.

Results

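Livers of young mice, 4 months old, were compared between libraries labelled 72 and libraries labelled before, with 3 libraries in each group. These 6 libraries were taken by their titles from a series of 36, in which livers of young and old (18 months) mice were sampled at 6 time points during regeneration. All mice were C57BL/6JN, and no allele, transgene or drug is named for any group. The unit of the time label, the way regeneration was started and the sex of the mice are not given in the sources used here. Total RNA from frozen liver was depleted of ribosomal RNA and sequenced, and each library gave 1 count per gene. The design text calls the 3 libraries of a group biological replicates. Replicate 1 to 3 are the labels' own numbers. Young livers labelled 48 and old livers labelled 72 and before, 3 libraries each, entered only the comparisons that name them.

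The adult liver is mostly hepatocytes, long-lived cells that rarely divide, and it regrows after tissue loss by division of these remaining cells rather than from a stem cell pool. A hepatocyte that re-enters the cell cycle passes from G1 through DNA synthesis, in which E2F factors drive replication genes, into mitosis, in which B-MYB, FOXM1 and the MuvB core drive the spindle and cytokinesis genes. Sinusoidal endothelium, stellate cells, bile duct cells and macrophages follow later and rebuild vessels and matrix. During regrowth the liver must also keep up synthesis of glucose, bile and blood proteins.

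The 6 libraries held between 3730281 and 5143694 counts over 21955 gene rows, with 15618 to 18309 genes detected. Levels are given as CPM, counts of a gene scaled to a common library total after correction for composition by the trimmed mean of M values. The 7 hepatocyte markers (Alb, Ttr, Apoa1, Apob, Serpina1c, Fgb and Cps1) were at 178 CPM or more in every library. Before replicate 3 and 72 replicate 1 had over 18000 genes detected, 1 library in each group. Transcripts of 4 Y-linked genes summed to 277 CPM in before replicate 1 and to 208 CPM in 72 replicate 3, and to 0 in the other 4 libraries, so each group held 1 such library. The X-linked RNA Xist was at 2.92 and 0.739 CPM in the same libraries and at 2904 to 3467 CPM in the other 4. These Y-linked and Xist values were scaled by total count alone. The RNA comes from whole tissue, so fewer cells of a type and less RNA per cell cannot be told apart.

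In the test of 13436 genes, 2340 differed between 72 and before at an adjusted p under 0.05 (edgeR quasi-likelihood test, Benjamini-Hochberg), which is 17.4% of genes tested. Of these, 1237 were higher at 72 (9.21% of genes tested) and 1103 were lower (8.21%). Called rises were larger, with a median log2 change of 1.33 against -0.78 among called falls, and 805 rises but 338 falls exceeded 1 on the log2 scale. The median change over all tested genes was 0.01. Under scaling by total count alone the median of all genes moved up by 0.211 and the split of calls became 2096 higher and 537 lower. Calls of small rises and of small falls thus both depend on the scaling. Among 42 gene lists, the share of members called is plotted beside these background shares.

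**Figure D1:**
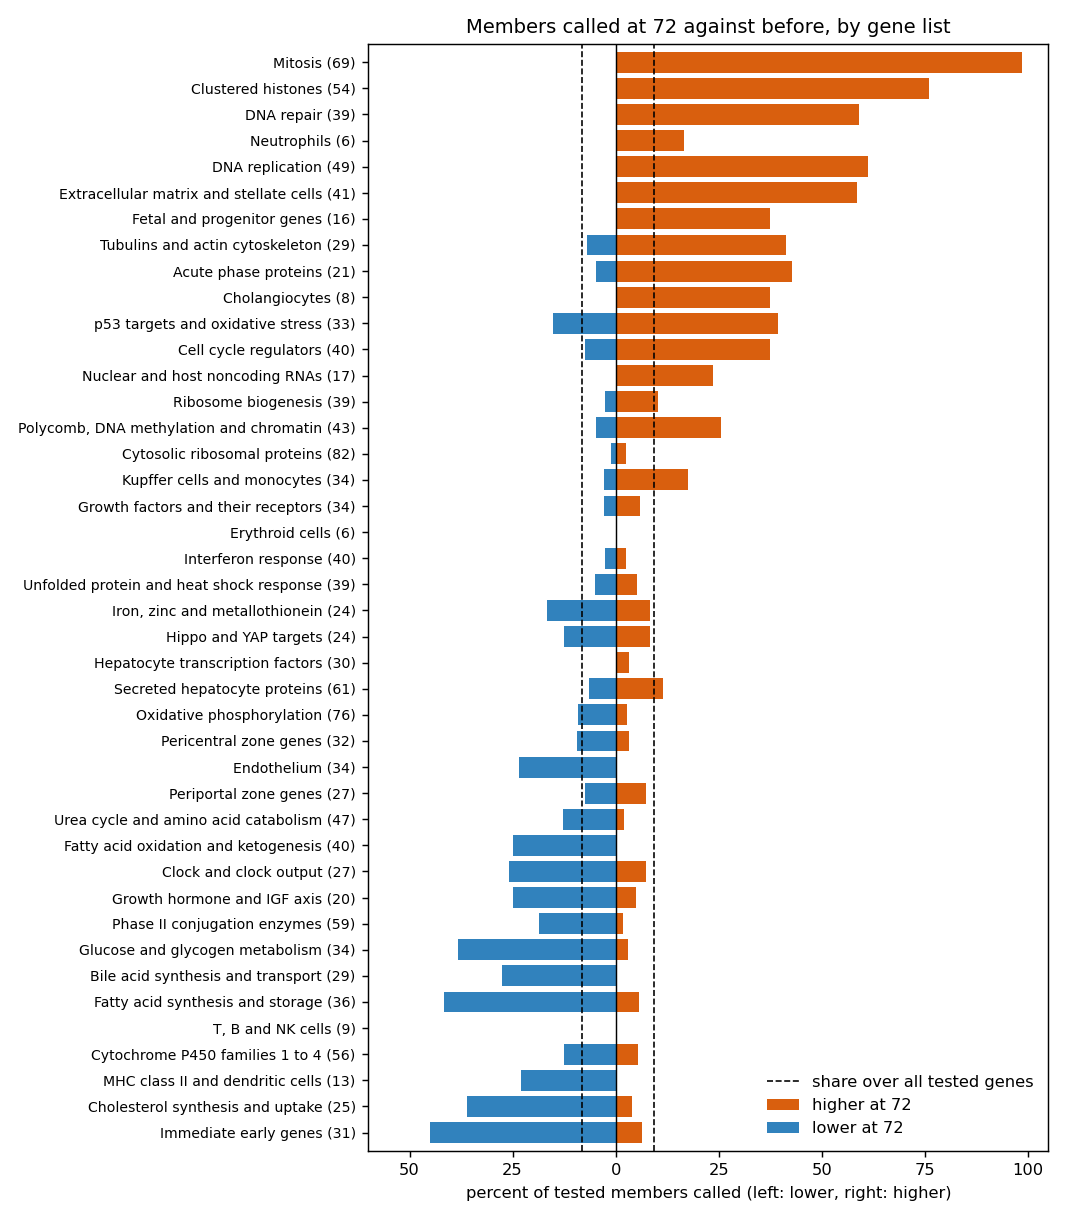
Percent of the tested members of 42 gene lists that were called higher (right, orange) or lower (left, blue) at 72 against before in young liver, ordered by the list's median log2 change, with the number of tested members in brackets and dashed lines at the shares over all tested genes (9.21% higher, 8.21% lower). Mitosis, histone, DNA repair, DNA replication and matrix lists lie far to the right, and immediate early, cholesterol, fatty acid synthesis and glucose lists reach farthest to the left.

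The 3 livers at 72 did not move equally far. Replicate 3 at 72 had the level nearest to the before group in 843 of the 1237 called rises (68.1%) and in 727 of the 1103 called falls (65.9%). This is also the library with Y-linked transcripts, and whether sex takes part in the difference between the 3 livers was not tested. Leaving it out gave 2433 calls. Leaving out replicate 1 or 2 at 72 gave 1251 and 1230, leaving out before replicate 1 or 3 gave 1506 and 1461, and leaving out the library with over 18000 genes in each group gave 748.

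The mitosis list, genes of the spindle, kinetochore, chromosome condensation and cytokinesis, rose almost as a whole. Of 69 tested members 68 rose and none fell, and the list's median log2 change was 4.10 against 0.01 over all genes tested. Pttg1, which encodes securin, was the member without a call (3.53, 3.23 and 1.69 CPM before and 5.34, 2.67 and 4.07 CPM at 72). Summed over the list, the level was 185, 240.4 and 258 CPM before and 4102, 4986 and 1355 CPM at 72. Replicate 3 at 72 was the lowest of its group for every one of the 68, yet its sum stood well above every library taken before. For 66 of the 68 the groups did not overlap, as for most called rises (1159 of 1237). Over all tested genes, called or not, 36% did not overlap. In the alternatives 53 to 68 members rose.

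Mki67, the nuclear protein Ki-67 that coats mitotic chromosomes, was at 31.4, 45 and 46.4 CPM before and at 1163, 1689.9 and 424 CPM at 72. The groups lay far apart, with a log2 change of 4.74 ± 0.87 (SE; adjusted p = 0.000786). Ube2c, the ubiquitin-conjugating enzyme of the anaphase-promoting complex, went from 0.208, 0.248 and 0.483 CPM to 25, 33.5 and 5.59 CPM. It had the largest log2 change of the list, 5.99 ± 1.14 (adjusted p = 0.00096), and replicate 3 was the lowest at 72. Cdc20, an activator of the same complex, was at 1.87, 3.97 and 2.90 CPM before and 128, 142 and 35.1 CPM at 72 (5.13 ± 1.03, adjusted p = 0.00158). Cdk1, the kinase that starts mitosis, was at 0, 0.248 and 0.966 CPM before and 17.5, 18.2 and 2.29 CPM at 72, so only replicate 3 came near the before livers (4.94 ± 0.92, adjusted p = 0.000732). Its partner cyclin B1, Ccnb1, was at 0.208, 0.994 and 0.483 CPM before and 20.2, 22.6 and 8.39 CPM at 72, and cyclin A2, Ccna2, at 2.91, 6.21 and 4.11 CPM and 71.7, 96.5 and 26.7 CPM. Both cyclins passed the test with adjusted p = 0.00212 and 0.00095.

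Several spindle genes belonged to the largest rises among called genes whose groups did not overlap. Hmmr, a receptor for hyaluronan that also binds spindle microtubules, went from 0.416, 1.49 and 1.21 CPM to 82.6, 72 and 27.5 CPM (log2 change 5.88 ± 1.06). Ckap2, a spindle microtubule protein, went from 0.416, 2.24 and 2.17 CPM to 60.3, 91.9 and 26.7 CPM (5.23 ± 0.83). Sgol2a, a shugoshin that protects cohesin at centromeres, and Knstrn, a kinastrin at kinetochores, had log2 changes of 5.21 ± 0.88 and 5.17 ± 0.89. Replicate 3 was the lowest library at 72 for all of these. That no library at 72 reached down to the before group was a condition of their choice. Kif22, the chromokinesin Kid, had the smallest p of the list (1.87, 1.99 and 3.14 CPM before, 30.9, 33.5 and 10.7 CPM at 72, 3.42 ± 0.51, adjusted p = 0.000144), and the condensin subunit Ncapd2 changed by 2.85 ± 0.44 (adjusted p = 0.000187). Kif2c and Troap, a depolymerising kinesin and a spindle-associated protein, had 3 counts or fewer over the 3 before libraries, and their ratios of 72 to before were 48.1 (exact 95% counting interval 16.2 to 236) and 41.3 (13.8 to 203).

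Because the mitosis genes moved together, their promoters were read for the cell cycle genes homology region (CHR, the letters TTTGAA or TTCGAA on either strand), the element at which the MuvB core binds, and for the CCAAT box (CCAAT on either strand), which binds NF-Y. The window ran from 250 bases before to 50 bases after the start in the RefSeq promoter table (GRCm38.p6), and the first listed promoter of each gene was taken. Of the 68 mitosis genes that rose, 57 matched the table, and 42 of these (73.7%) held a CHR and 44 (77.2%) a CCAAT box. Over all listed mitosis genes, nearly all of which rose, the shares were 72.4% and 75.9%. Over all promoters of the table the shares were 19.4% and 37.9%, and over the tested genes that matched (10638) they were 14.5% and 39.0%. Among the histone genes that rose they were 55.3% and 86.8%. The shares were 22.5% and 44.7% over all called rises and 14.4% and 38.7% over all called falls. These are matches of letters and not measured binding. The 120 bases before the start are printed for 4 of these genes because they show the spacing of both elements near the start. They lie at chr2:164769809-164769928 (plus strand) for Ube2c, chr8:22185820-22185939 (minus strand) for Ckap2, chr4:118437344-118437463 (minus strand) for Cdc20 and chr10:69352913-69353032 (minus strand) for Cdk1. Letters run 5′ to 3′ on the gene's strand, and capitals mark CHR and CCAAT matches, which share no letters here (TTCAAA and ATTGG are the matches on the other strand).
Ube2c: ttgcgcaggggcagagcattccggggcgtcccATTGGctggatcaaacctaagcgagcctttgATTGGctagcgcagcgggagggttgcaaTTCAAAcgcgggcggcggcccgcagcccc
Ckap2: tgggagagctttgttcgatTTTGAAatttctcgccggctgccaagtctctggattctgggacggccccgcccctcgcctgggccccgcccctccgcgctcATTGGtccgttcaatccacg
Cdc20: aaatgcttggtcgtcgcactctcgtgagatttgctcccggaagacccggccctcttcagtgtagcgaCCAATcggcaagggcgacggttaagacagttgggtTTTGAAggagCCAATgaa
Cdk1: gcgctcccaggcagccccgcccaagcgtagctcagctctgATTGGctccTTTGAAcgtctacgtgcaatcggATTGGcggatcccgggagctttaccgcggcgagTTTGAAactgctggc
The CHR nearest to the start began 29 bases before it in Ube2c, 18 in Cdc20 and 15 in Cdk1, but 101 bases before it in Ckap2.

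**Figure D2:**
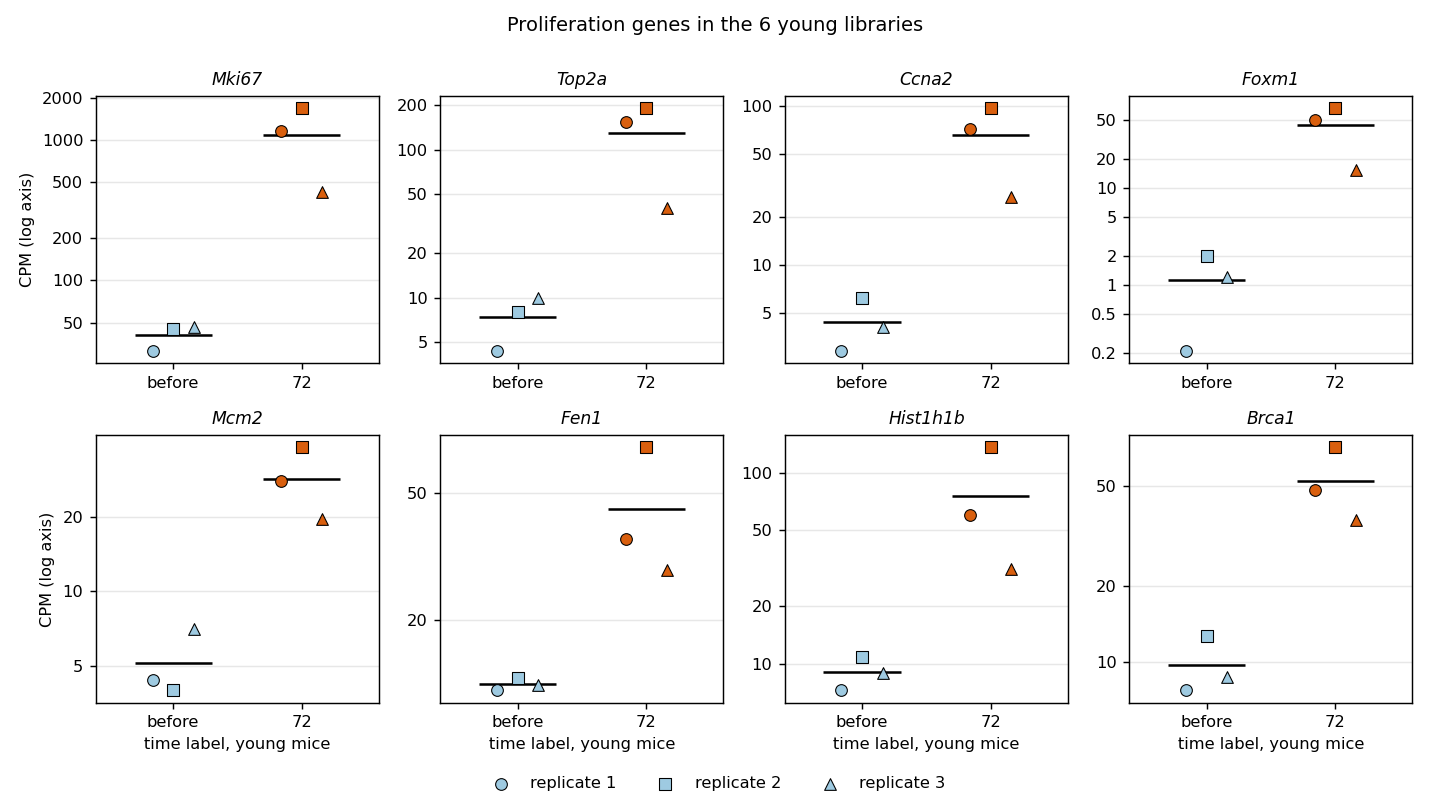
CPM (log axis) of 8 proliferation genes in the 3 young libraries before and the 3 at 72, with the replicate number as the symbol and the group mean as a line. No library at 72 overlaps the before group for any of the 8, and replicate 3 (triangles) is the lowest at 72 in each panel. The 8 are called rises, of which 1159 of 1237 did not overlap, against 36% of all tested genes. Foxm1 was among the largest rises, whose choice required groups without overlap.

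DNA replication genes had a lower median change than the mitosis genes. Of 49 tested members of the list 30 rose and none fell, with a median log2 change of 1.26. Mcm2, a subunit of the MCM helicase that unwinds origins, went from 4.36, 3.97 and 7 CPM to 27.8, 38.1 and 19.6 CPM (log2 change 2.48 ± 0.55, adjusted p = 0.00307). The groups did not overlap, and its partners Mcm5, Mcm6, Mcm3, Mcm7 and Mcm4 rose too, by 2.67, 2.43, 1.98, 1.26 and 1.34. Timeless, which travels with the fork, had the smallest p of the list (11, 11.7 and 10.4 CPM before, 43.7, 42.9 and 29.2 CPM at 72, 1.81 ± 0.28, adjusted p = 0.000166). Rrm1, the large subunit of ribonucleotide reductase, changed by 1.66 ± 0.27 and the flap endonuclease Fen1 by 1.83 ± 0.35 (adjusted p = 0.000294 and 0.000945). Pcna, the sliding clamp, was at 23.7, 28.3 and 21.5 CPM before and 37.2, 66.2 and 30.8 CPM at 72, a small gap with replicate 3 only just above the before libraries (0.87 ± 0.27, adjusted p = 0.0286). Its call was lost without before replicate 1, before replicate 3 or 72 replicate 2 (adjusted p = 0.0866 to 0.294). Between 11 and 34 members of the list rose in the alternatives, with 15 without before replicate 1 and 15 without 72 replicate 2.

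E2F sites were looked for in the same way (TTTGGCGC, TTTGCCGC, TTTCGCGC or TTTCCCGC on either strand). They were present in 8 of the 25 matched replication promoters that rose (32.0%), against 2.32% of all promoters of the table and 4.07% of the tested genes. Over all listed replication genes, risen or not, the share was close to that of the risen ones (12 of 40 matched, 30%). Among the genes that rose in other lists the share was 8.77% for mitosis, 27.8% for DNA repair (5 of 18 matched) and 23.7% for histones (9 of 38), and over all called rises it was 7.85%. The whole lists had 8.62%, 25.8% and 17.5% in the same order. The Mcm6 promoter, chr1:128359706-128359825 (minus strand), is printed because it carries 3 matches within the 120 bases before the start, of which a pair overlaps on opposite strands as TTTGGCGCGAAA, and 2 CCAAT boxes. Capitals mark both kinds of match.
Mcm6: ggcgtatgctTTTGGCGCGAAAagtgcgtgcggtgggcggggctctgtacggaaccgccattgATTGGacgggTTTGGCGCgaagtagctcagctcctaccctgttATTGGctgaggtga

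Replication-dependent histone genes, which sit in clusters and are expressed in step with DNA synthesis, rose in 41 of 54 tested cases with none lower and a median log2 change of 2.18. The linker histone gene Hist1h1b was at 7.27, 10.9 and 8.94 CPM before and 60.1, 136 and 31.3 CPM at 72 (3.07 ± 0.60, adjusted p = 0.00137). Replicate 2 at 72 was the highest library for this gene and for the summed list, which stood at 1669, 3683 and 1723 CPM at 72 and 1213, 1275 and 1218 CPM before. Without 72 replicate 2, 19 histone genes rose. The H2B genes Hist1h2bn and Hist1h2bl changed by 3.88 ± 0.72 and 4.37 ± 0.85 (adjusted p = 0.000779 and 0.00114). Copies of 1 histone are nearly identical, so the split of reads between them is uncertain. A CCAAT box was present in 33 of the 38 matched histone promoters that rose (86.8%) and a TATA box (TATAAA on either strand) in 25 (65.8%, against 14.2% of all promoters of the table). Over all listed histone genes, risen or not, the shares were 84.2% and 59.6%. The Hist1h1b promoter, chr13:21780626-21780745 (minus strand), shows the arrangement, with capitals at 2 CCAAT boxes and at the TATA box that begins 28 bases before the start.
Hist1h1b: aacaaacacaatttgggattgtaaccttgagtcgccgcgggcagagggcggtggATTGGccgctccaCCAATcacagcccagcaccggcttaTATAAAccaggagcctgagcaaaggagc

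DNA repair and checkpoint genes rose in 23 of 39 cases, with none lower (median log2 change 1.51), and replicate 3 was the lowest library at 72 in all 23. Brca1, which acts in homologous recombination, was at 7.69, 12.7 and 8.69 CPM before and 48.6, 71.5 and 36.9 CPM at 72 (2.44 ± 0.32, adjusted p = 3.41e-05). Clspn, the adaptor of the checkpoint kinase Chek1, went from 1.04, 0.994 and 0.725 CPM to 22.5, 21.3 and 6.61 CPM (4.16 ± 0.71, adjusted p = 0.000398). For both genes the groups lay apart, and Rad54b, a recombination helicase, changed by 3.17 ± 0.60 (adjusted p = 0.000783). The number of repair genes that rose ranged from 9 to 24 in the alternatives, with 12 without before replicate 1, 13 without 72 replicate 1 and 11 without 72 replicate 2.

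Among 40 cell cycle regulators 15 rose (37.5%) and 3 fell (7.5%), against 9.21% and 8.21% of all genes tested. The falls were thus under the background share, and they numbered 0 to 3 in the alternatives. Foxm1, the mitotic forkhead factor, went from 0.208, 1.99 and 1.21 CPM to 50.3, 66.9 and 15.3 CPM, with no overlap (log2 change 5.31 ± 0.88, adjusted p = 0.000363). Mybl1, a MYB family factor, changed by 4.87 ± 0.68 (adjusted p = 9.11e-05) and the phosphatase Cdc25a by 1.46 ± 0.25 (adjusted p = 0.000372). E2f1 was at 9.14, 6.21 and 3.62 CPM before and 17.7, 22.6 and 16.8 CPM at 72 (1.57 ± 0.51, adjusted p = 0.0344), and its call was lost without before replicate 2, before replicate 3, 72 replicate 1 or 72 replicate 2 (adjusted p = 0.0694 to 0.144). The G1 cyclin Ccnd1 was at 113, 457 and 429 CPM before and 496, 802 and 308 CPM at 72. These ranges overlapped, with before replicates 2 and 3 far above before replicate 1, and the change did not pass the test (0.69 ± 0.65, adjusted p = 0.508). Neither did Ccne2 (-0.13 ± 0.42, adjusted p = 0.867) or Myc (-1.38 ± 0.61, adjusted p = 0.119), for which before replicate 1 stood at 114 CPM and the other 5 libraries between 10.2 and 26.9 CPM. The regulators that fell were the stress gene Gadd45a (39.5, 89.2 and 124 CPM before, 11.6, 12.9 and 14 CPM at 72, -2.72 ± 0.68), the antiproliferative gene Btg2 (-1.66 ± 0.51) and the pocket protein gene Rbl2 (-0.54 ± 0.15). Btg2 lost its call without before replicate 2, before replicate 3, 72 replicate 1 or 72 replicate 3 (adjusted p = 0.0883 to 0.108) and Rbl2 without before replicate 2 or 72 replicate 2 (adjusted p = 0.058 to 0.113).

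In the list of p53 and oxidative stress targets 13 of 33 rose (39.4%), 5 fell (15.2%) and 15 were not called, with a median log2 change of 0.75. Over all genes tested 9.21% rose and 8.21% fell. Cdkn1a, which encodes the Cdk inhibitor p21, was at 2.29, 4.22 and 3.86 CPM before and 31.1, 61.1 and 29.7 CPM at 72. All 3 libraries at 72 stood above all before libraries (3.56 ± 0.76, adjusted p = 0.00248). Phlda3, a repressor of Akt, went from 0.831, 2.48 and 2.42 CPM to 16.4, 26.9 and 18.6 CPM (3.44 ± 0.50, adjusted p = 0.000105), with replicate 3 in the middle of its group. The death receptor gene Tnfrsf10b changed by 3.44 ± 0.72 and the RNA-binding protein gene Zmat3 by 1.10 ± 0.19 (adjusted p = 0.00164 and 0.000375). The 5 that fell were Gdf15, Btg2, Trp53inp1, Plk3 and Sesn1, and their count was 3 without before replicate 2, 3 without before replicate 3, 2 without 72 replicate 1 and 3 without 72 replicate 3. Gdf15, a stress cytokine, fell by 2.28 ± 0.54 on the log2 scale (adjusted p = 0.00512).

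In the list of Polycomb, DNA methylation and chromatin genes 11 of 43 rose (25.6%) and 2 fell (4.65%), against 9.21% and 8.21% of all genes tested. The count that rose was 7 without before replicate 1, 6 without 72 replicate 1 and 7 without 72 replicate 2. H2afx, a histone variant marked at DNA breaks, was at 16.4, 11.9 and 9.42 CPM before and 49.8, 115 and 35.3 CPM at 72 (2.40 ± 0.46, adjusted p = 0.00099). Ezh2, the methyltransferase of Polycomb repressive complex 2, was at 5.19, 8.44 and 7.49 CPM before and 19.1, 20.9 and 8.90 CPM at 72, where replicate 3 lay only just above the before libraries (1.22 ± 0.34, adjusted p = 0.0126). Its call was lost without before replicate 1, 72 replicate 1 or 72 replicate 2 (adjusted p = 0.0627 to 0.0792). The maintenance methyltransferase Dnmt1 changed by 1.06 ± 0.25, the histone chaperone Asf1b by 2.68 ± 0.56 and the H3K9 methyltransferase Suv39h1 by 1.38 ± 0.30 (adjusted p = 0.0041, 0.00161 and 0.00217). Cbx7, a reader subunit of Polycomb repressive complex 1, went the other way (20.2, 18.9 and 16.2 CPM before, 7.25, 9.94 and 3.56 CPM at 72, -1.40 ± 0.36, adjusted p = 0.00741).

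Cytoskeletal genes rose in 12 of 29 cases (41.4%) and fell in 2 (6.90%), against 9.21% and 8.21% of all genes tested. Without 72 replicate 2, 7 rose. Myh9, the heavy chain of nonmuscle myosin IIA, had the smallest p, at 587, 620.2 and 585 CPM before and 1699, 1597 and 1244 CPM at 72 (1.34 ± 0.19, adjusted p = 8.23e-05). The tubulin gene Tubb6 went from 17.7, 16.1 and 17.4 CPM to 117, 135 and 52.1 CPM (2.57 ± 0.43, adjusted p = 0.000375) and the lamin gene Lmna changed by 1.42 ± 0.22 (adjusted p = 0.000169). Actin gamma, Actg1, fell from 31.6, 96.6 and 71.7 CPM to 17.7, 19.4 and 12.2 CPM (-2.01 ± 0.43, adjusted p = 0.00213), with before replicate 1 the lowest of its group. The translation and energy lists moved little. Of 82 cytosolic ribosomal protein genes 2 rose and 1 fell, and of 39 ribosome biogenesis genes 4 rose and 1 fell, both near or under the background shares. Under total-count scaling 10 and 15 members rose instead. Of 76 oxidative phosphorylation genes 2 rose and 7 fell (median -0.19), also near or under the background shares. Among the falls was the complex I subunit Ndufb8 (-0.76 ± 0.13, adjusted p = 0.000449). The count that fell was 1 under total-count scaling, 3 without before replicate 3, 3 without 72 replicate 1 and 1 without 72 replicate 2.

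The immediate early genes are transcription factors and feedback regulators that switch on within minutes of a stimulus. Of 31 tested members 14 fell at 72 (45.2%), 2 rose (6.45%) and 15 were not called, and the median log2 change was -1.68. Over all genes tested 8.21% fell and 9.21% rose. Fos was at 16.4, 179 and 134 CPM before and 5.72, 6.55 and 5.08 CPM at 72 (-4.24 ± 0.76, adjusted p = 0.000657). Before replicate 1 was far below its partners but above every library at 72. The orphan receptor gene Nr4a1 was at 31.4, 59.4 and 63 CPM before and 1.72, 6.55 and 2.03 CPM at 72 (-3.91 ± 0.62, adjusted p = 0.000227). Zfp36, which encodes an mRNA decay factor, had the smallest p (223, 392 and 308 CPM before, 52.6, 52.9 and 74.2 CPM at 72, -2.36 ± 0.28, adjusted p = 1.76e-05), and the Fos family gene Fosb changed by -4.09 ± 0.77 (adjusted p = 0.000739). Before replicate 1 was the lowest of its group for 11 of the 14 that fell (78.6%), and for 372 of all 1103 called falls (33.7%). It also carries the Y-linked transcripts. Whether sex takes part in the level of the 14 genes was not tested. The fit of the 6 libraries alone ended the calls of Fos and Fosb, and that fit with the replicate block ended the call of Fos but not of Fosb. Between 6 and 16 members fell over all alternatives. Atf3 did not pass the test (-1.98 ± 0.81, adjusted p = 0.0936). Ier5 rose, from 6.65, 9.44 and 8.94 CPM to 35.7, 56.3 and 29 CPM (2.27 ± 0.32, adjusted p = 8.23e-05), as did the Krüppel-like factor gene Klf6 (0.91 ± 0.28, adjusted p = 0.0236), whose call was lost without before replicate 1, before replicate 2, 72 replicate 1 or 72 replicate 2 (adjusted p = 0.0619 to 0.244).

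Rgs16, a regulator of G protein signalling, showed the largest fitted fall of all called genes. It was at 709, 902 and 509 CPM before and at 1.14, 0.242 and 3.81 CPM at 72, so that a well expressed gene was left at 3.81 CPM or less in each library (-8.69 ± 1.49, adjusted p = 0.000481). The gene lies at chr1:153740353-153745468 in GRCm38.p6. It stands in the list of clock genes and clock outputs, in which 7 of 27 fell (25.9%) and 2 rose (7.41%), with a median of -0.51. Over all genes tested 8.21% fell and 9.21% rose. Falls in the list numbered 4 without before replicate 1, 3 without 72 replicate 1 and 3 without 72 replicate 2. The PAR bZIP factor gene Hlf changed by -1.02 ± 0.23 and the repressor gene Bhlhe40 by -1.24 ± 0.29 (adjusted p = 0.00322 and 0.00374). Dbp, another PAR bZIP factor, was at 90.4, 90.4 and 65.9 CPM before and 22.3, 31.3 and 59.5 CPM at 72 and did not pass the test (-1.13 ± 0.63, adjusted p = 0.231). Arntl, the positive clock factor BMAL1, was at 1.04, 0.497 and 1.21 CPM before and 6.48, 5.82 and 2.54 CPM at 72 (2.41 ± 0.65, adjusted p = 0.0117), and lost its call without before replicate 2 or 72 replicate 1 (adjusted p = 0.0533 to 0.059). The clock hour at which each liver was taken is not given in the sources used here, and its part in these changes was not tested.

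**Figure D3:**
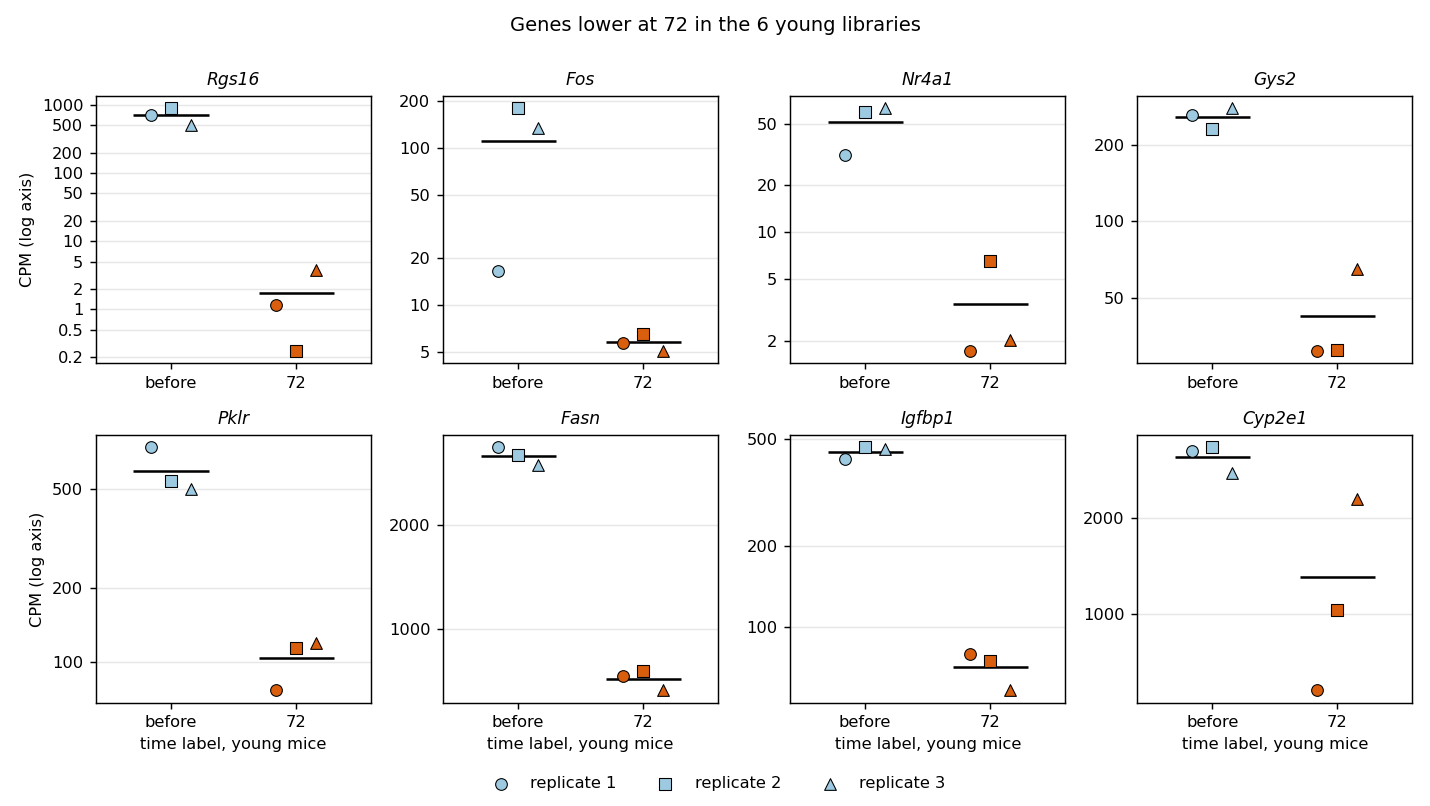
CPM (log axis) of 8 genes called lower at 72, in the 3 young libraries before and the 3 at 72, with the replicate number as the symbol and the group mean as a line. The groups do not overlap in any panel, as in 1069 of the 1103 called falls, against 36% of all tested genes. Rgs16, Fos and Nr4a1 were among the largest falls, whose choice required groups without overlap. Before replicate 1 (circles) is the lowest before library for Fos and Nr4a1, and 72 replicate 3 (triangles) is the highest at 72 for Cyp2e1.

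Of 36 tested members of the fatty acid synthesis and storage list 15 fell (41.7%), 2 rose (5.56%) and 19 were not called. Over all genes tested 8.21% fell and 9.21% rose. The list's median log2 change was -0.68, and 10 to 17 fell in the alternatives. Fasn, the fatty acid synthase, was at 3347, 3177 and 2976 CPM before and 733, 754 and 664 CPM at 72. The libraries at 72 agreed closely and lay far below the before group (-2.14 ± 0.32, adjusted p = 0.000131). Acaca, the carboxylase that makes malonyl-CoA, changed by -1.06 ± 0.16 (adjusted p = 0.000119), and the elongase Elovl5 went from 1548, 1401 and 1618 CPM to 439, 489 and 518 CPM (-1.66 ± 0.26, adjusted p = 0.000187). Scd1, the main liver desaturase, which was singled out after its values were seen because it dominates the summed list, was at 23579, 12955 and 15212 CPM before and 3178, 1946 and 279 CPM at 72 (-3.26 ± 0.97, adjusted p = 0.021). Here replicate 3 was the lowest library. Its relative Scd2 rose, from 13.3, 17.4 and 13 CPM to 68.1, 59.2 and 18.6 CPM (1.74 ± 0.39, adjusted p = 0.00294), and so did lipoprotein lipase, Lpl (23.1, 19.4 and 26.8 CPM before, 121, 102 and 33.6 CPM at 72, 1.89 ± 0.59, adjusted p = 0.0288). In both, replicates 1 and 2 were high and replicate 3 was close to the before livers, and Lpl lost its call without before replicate 1, before replicate 2, before replicate 3, 72 replicate 1 or 72 replicate 2 (adjusted p = 0.0657 to 0.127).

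Cholesterol synthesis and uptake genes fell in 9 of 25 cases and rose in 1 (median -0.89). Tm7sf2, a sterol reductase, was at 138, 119 and 128 CPM before and 31.7, 37.6 and 57.4 CPM at 72 (-1.61 ± 0.26, adjusted p = 0.000235). The cholesterol carrier gene Stard4 changed by -1.30 ± 0.26 and the demethylase gene Cyp51 by -1.25 ± 0.35 (adjusted p = 0.00132 and 0.014). Cyp51 lost its call without before replicate 3 or 72 replicate 1 (adjusted p = 0.0802 to 0.101). The count that fell ran from 2 to 16 across the alternatives, with 5 without before replicate 1, 5 without before replicate 2, 3 without before replicate 3, 2 without 72 replicate 1 and 5 without 72 replicate 2. Fatty acid oxidation genes fell in 10 of 40 cases with none higher, such as the acyl-CoA thioesterase Acot12 (214, 209.6 and 224 CPM before, 63.1, 60.4 and 98.1 CPM at 72, -1.55 ± 0.25, adjusted p = 0.00026) and the peroxisomal reductase Decr2 (-1.23 ± 0.21, adjusted p = 0.000333). Replicate 3 was the highest library at 72 for all 10, and the count was 6 without before replicate 1, 6 without 72 replicate 1 and 6 without 72 replicate 2.

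Glucose and glycogen genes fell in 13 of 34 cases and rose in 1. Ppp1r3g, a subunit that targets protein phosphatase 1 to glycogen, went from 225, 155 and 119.6 CPM to 1.33, 0 and 3.05 CPM (-6.83 ± 0.83, adjusted p = 3.01e-05). No library at 72 came near the before range. Gys2, liver glycogen synthase, was at 262, 230.5 and 279 CPM before and 30.9, 31 and 65.1 CPM at 72 (-2.61 ± 0.32, adjusted p = 2.48e-05), and Pklr, liver pyruvate kinase, at 739, 538 and 503 CPM and 76.6, 114 and 119.7 CPM (-2.52 ± 0.36, adjusted p = 9.11e-05). Replicate 3 kept the most Gys2 at 72. Genes of both directions of the pathway were among those that fell, with glucose-6-phosphatase, G6pc, at -2.36 and the glucose transporter Slc2a2 at -1.56 on the log2 scale. Pck1, the entry enzyme of gluconeogenesis, did not pass the test (-0.78 ± 0.31, adjusted p = 0.0855). Lactate dehydrogenase A, Ldha, rose from 189.9, 161 and 132 CPM to 325, 279 and 376 CPM (1.02 ± 0.27, adjusted p = 0.0105), a call lost without before replicate 3 (adjusted p = 0.06). In the amino acid and urea list 6 of 47 fell (12.8%, against 8.21% of all genes tested) and 1 rose. Falls in this list numbered 3 without before replicate 1, 3 without before replicate 2, 2 without 72 replicate 1 and 1 without 72 replicate 2. The rise was Nags, which makes the activator of the urea cycle (0.93 ± 0.24, adjusted p = 0.00849). Cps1, the first enzyme of that cycle, had a log2 change of -0.58 ± 0.33 and no call (adjusted p = 0.243).

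Detoxification genes changed in part. Among 56 cytochrome P450 genes 7 fell (12.5%) and 3 rose (5.36%). Among 59 conjugation genes 11 fell (18.6%) and 1 rose (1.69%). Over all genes tested 8.21% fell and 9.21% rose, so the P450 list lay near background. Falls numbered 4 without 72 replicate 1 and 4 without 72 replicate 2 for the first list and 4 without before replicate 3, 3 without 72 replicate 1 and 4 without 72 replicate 2 for the second. Other settings gave more, with 12 P450 falls without the libraries with Y-linked transcripts, and the range over all alternatives was 3 to 16 for the first list and 2 to 21 for the second. Cyp2j9 had the smallest p among the P450 genes (21, 17.4 and 22.9 CPM before, 3.24, 3.88 and 4.32 CPM at 72, -2.42 ± 0.49, adjusted p = 0.00137), and Cyp4a31, a fatty acid hydroxylase, went up from 5.61, 9.19 and 4.83 CPM to 32.6, 42.2 and 43.5 CPM (2.59 ± 0.53, adjusted p = 0.0016). The glucuronosyltransferase Ugt1a5 went from 198, 289 and 292 CPM to 41.2, 50.7 and 51.9 CPM (-2.44 ± 0.49, adjusted p = 0.00142) and the sulfotransferase Sult1b1 changed by -2.21 ± 0.40 (adjusted p = 0.000481). Sult3a1 had 0 counts in before replicate 1 and 27.8 and 32.1 CPM in the other before libraries, and at most 0.242 CPM at 72. It thus followed the library with Y-linked transcripts in the before group and overlapped between groups, although it was called (adjusted p = 0.0347). Its ratio of before to 72 was 126 with an exact 95% counting interval of 34.4 to 1043, and the call was lost without before replicate 2, before replicate 3, 72 replicate 1, 72 replicate 2 or 72 replicate 3 (adjusted p = 0.0726 to 0.117). Ugt2b38 changed by -3.79 ± 1.00 (adjusted p = 0.00966), a call lost without before replicate 1, 72 replicate 1 or 72 replicate 2 (adjusted p = 0.0542 to 0.0676). Members of the P450 and UGT families are similar in sequence, so reads may be split between them.

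Bile acid synthesis and transport genes fell in 8 of 29 cases with none higher. The count was 5 under total-count scaling, 5 without before replicate 2, 5 without before replicate 3, 4 without 72 replicate 1 and 5 without 72 replicate 2, but 11 without 72 replicate 3 and 13 without the libraries with Y-linked transcripts. The sterol exporter Abcg8 was at 188, 226 and 154 CPM before and 68.5, 39.5 and 48.3 CPM at 72 (-1.86 ± 0.35, adjusted p = 0.000814). Cyp27a1, the sterol hydroxylase of the alternative pathway, was at 641, 685 and 548 CPM before and 144, 171 and 357 CPM at 72, with replicate 3 between the other libraries at 72 and the before group (-1.48 ± 0.34, adjusted p = 0.00402). Abcc3, an exporter of conjugates, changed by -1.14 ± 0.26 (adjusted p = 0.00337). Cyp7a1, the rate-limiting enzyme of bile acid synthesis, was at 579, 699.7 and 365 CPM before and 431, 531 and 1581 CPM at 72. One library, replicate 3, stood above the rest, the ranges overlapped and the test was not passed (0.63 ± 0.98, adjusted p = 0.707).

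Of 32 pericentral genes 3 fell (9.38%) and 1 rose (3.13%), and of 27 periportal genes 2 fell and 2 rose (7.41% each). All were near or under the background shares of 8.21% lower and 9.21% higher. These small counts moved with the settings. The pericentral falls numbered 7 without 72 replicate 3, 7 without the libraries with Y-linked transcripts, 6 with DESeq2, and 0 to 10 over all alternatives, and the periportal falls 0 to 7. Glul, glutamine synthetase of the cells around the central vein, was at 1286, 1544 and 1582 CPM before and 303, 478 and 1057 CPM at 72 (-1.26 ± 0.40, adjusted p = 0.0286), and Cyp2e1 at 3265, 3342 and 2783 CPM and 574, 1028 and 2307 CPM (-1.26 ± 0.35, adjusted p = 0.0121). For both, replicate 3 was the closest to the before livers without reaching them. Glul lost its call without before replicate 2, before replicate 3, 72 replicate 1 or 72 replicate 2 (adjusted p = 0.0666 to 0.165) and Cyp2e1 without 72 replicate 1 or 72 replicate 2 (adjusted p = 0.0721 to 0.0933). The amino acid transporter Slc1a4 rose from 3.74, 6.21 and 6.04 CPM to 36.2, 68.1 and 35.6 CPM (3.13 ± 0.63, adjusted p = 0.00153). Of 30 hepatocyte transcription factors 1 rose and none fell, and this was Gata6 (10.2, 9.94 and 9.18 CPM before, 29.6, 29.6 and 22.4 CPM at 72, 1.48 ± 0.30, adjusted p = 0.00145). Among the 30 the list median was -0.13.

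Of the secreted hepatocyte proteins 7 of 61 rose (11.5%) and 4 fell (6.56%), near the background shares of 9.21% and 8.21%. Albumin, Alb, was at 8328, 10022 and 9083 CPM before and 6910.1, 8704 and 8892 CPM at 72, overlapping and not called (-0.16 ± 0.22, adjusted p = 0.668). Hpx, hemopexin, went from 1397, 1158 and 1184 CPM to 2787, 2782 and 4089 CPM (1.37 ± 0.33, adjusted p = 0.00482), whereas Apoa2 went from 2267, 2493 and 2410.4 CPM down to 819, 811 and 1359 CPM (-1.26 ± 0.22, adjusted p = 0.00041). Apoe fell by 0.69 ± 0.20 on the log2 scale (adjusted p = 0.0166), a call lost without before replicate 2, 72 replicate 1 or 72 replicate 2 (adjusted p = 0.0518 to 0.11). The count of secreted proteins that rose was 3 without before replicate 1 and 4 without before replicate 3. In the growth hormone and IGF list 5 of 20 fell and 1 rose (2 without 72 replicate 1 and 2 without 72 replicate 2 fell). The growth hormone receptor, Ghr, was at 1076, 988 and 1194 CPM before and 341, 407 and 659 CPM at 72 (-1.21 ± 0.25, adjusted p = 0.00138), its target Igf1 changed by -1.06 ± 0.27 (adjusted p = 0.00728), and Igfbp1, a binding protein of IGF-1, went from 422, 465 and 461 CPM to 79.5, 74.9 and 58.2 CPM (-2.66 ± 0.76, adjusted p = 0.0167). Serpina12, the adipokine vaspin, changed by -3.72 ± 1.03 (adjusted p = 0.0142). The calls were lost without 72 replicate 1 (adjusted p = 0.0504) for Igf1, without 72 replicate 1, 72 replicate 2 or 72 replicate 3 (adjusted p = 0.0543 to 0.0623) for Igfbp1 and without 72 replicate 1 or 72 replicate 2 (adjusted p = 0.0764 to 0.0808) for Serpina12. Growth factors and their receptors were near background, with 2 of 34 higher (Stat3, 0.78 ± 0.23, and the oncostatin M receptor Osmr, 1.07 ± 0.34) and Gdf15 lower. Stat3 lost its call without before replicate 2, before replicate 3, 72 replicate 1 or 72 replicate 3 (adjusted p = 0.0515 to 0.0807) and Osmr without before replicate 1, before replicate 2, before replicate 3, 72 replicate 2 or 72 replicate 3 (adjusted p = 0.0508 to 0.102).

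Acute phase proteins, secreted by hepatocytes under IL-6, rose in 9 of 21 cases and fell in 1. Lcn2, lipocalin 2, which sequesters bacterial siderophores, showed the largest fitted rise among called genes with any count before, from 2.08, 3.48 and 2.66 CPM to 251, 200.1 and 204 CPM (6.32 ± 0.95, adjusted p = 0.000187). All 3 libraries at 72 were similar, and the call held in all 20 alternatives. The gene lies at chr2:32384637-32387739. Orm2, orosomucoid 2, went from 5.61, 15.6 and 21 CPM to 174, 160.0 and 294 CPM (3.90 ± 0.66, adjusted p = 0.00041) and haptoglobin, Hp, from 2163, 1915 and 1527 CPM to 3629.8, 4251 and 7189 CPM (1.43 ± 0.31, adjusted p = 0.00242). Serum amyloid A1, Saa1, was at 49.9, 17.6 and 35.5 CPM before and 393, 196 and 954 CPM at 72 (3.90 ± 1.16, adjusted p = 0.0218), and its call was lost without before replicate 1, before replicate 2, before replicate 3 or 72 replicate 3 (adjusted p = 0.0551 to 0.085). In these 3 genes replicate 3 was the highest at 72, and the summed list was at 11396, 12477 and 10678 CPM before and 11452, 11665 and 23179.7 CPM at 72, so the sum stood apart from the before group only in replicate 3. Without replicate 3 the count that rose was 5. Hamp2, a hepcidin paralog, fell from 5.19, 61.1 and 66.2 CPM to 4.39, 2.18 and 1.53 CPM (-3.96 ± 1.28, adjusted p = 0.0346), but before replicate 1 was near the libraries at 72 and its call was lost without before replicate 2, before replicate 3, 72 replicate 1, 72 replicate 2 or 72 replicate 3 (adjusted p = 0.0807 to 0.114). In the iron and zinc list 2 of 24 rose (8.33%, against 9.21% of all genes tested) and 4 fell (16.7%, against 8.21%). The rises were transferrin (Trf) and metallothionein 2 (Mt2, 2.71 ± 0.83, adjusted p = 0.026). Trf lost its call without before replicate 1, before replicate 3, 72 replicate 1 or 72 replicate 2 (adjusted p = 0.0631 to 0.192) and Mt2 without before replicate 1, before replicate 3 or 72 replicate 1 (adjusted p = 0.0835 to 0.113). In this list 8 rose under total-count scaling, and 1 fell without 72 replicate 3.

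Extracellular matrix and stellate cell genes formed the other large group of rises. Of 41 tested members 24 rose and none fell, with a median log2 change of 1.24. Col1a1, the main chain of type I collagen, was at 11.8, 9.19 and 10.6 CPM before and 232, 179 and 27.5 CPM at 72 (3.79 ± 0.70, adjusted p = 0.000854). Replicates 1 and 2 were far above replicate 3, which was itself above the before libraries. Fbn1, fibrillin 1, followed the same order (6.44, 7.45 and 8.21 CPM before, 28.8, 36.4 and 11.4 CPM at 72, 1.80 ± 0.34, adjusted p = 0.000729). Mmp14, a membrane-bound collagenase, changed by 1.07 ± 0.20 (adjusted p = 0.000722), Col3a1 by 2.63 ± 0.53, Col1a2 by 2.90 ± 0.57 and the crosslinking oxidase Lox by 3.36 ± 1.00. Replicate 3 was the lowest library at 72 for all 24. The count that rose was 12 to 26 in the alternatives and 13 without 72 replicate 2, and Col1a1 itself lost its call when only the 6 libraries were fitted. The collagen chaperone Serpinh1 rose with them (27.2, 24.8 and 30.9 CPM before, 103, 161 and 49.3 CPM at 72, 1.91 ± 0.35, adjusted p = 0.000657), in a list of unfolded protein and heat shock genes in which only 2 of 39 rose and 2 fell. Summed markers of stellate cells and fibroblasts ran from 279 to 403 CPM before and from 280 to 523 CPM at 72, with Pdgfrb and Col1a1 called of 5.

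Some genes of fetal liver and of bile duct cells rose as well. Of 16 fetal and progenitor genes 6 rose and none fell, replicate 3 was the lowest at 72 for 5 of the 6, and the count was 2 without before replicate 1, 2 without before replicate 2, 2 without before replicate 3, 3 without 72 replicate 1 and 2 without 72 replicate 2. H19, an imprinted noncoding RNA of the fetal liver, was at 0.208, 3.48 and 3.38 CPM before and 385, 125 and 5.08 CPM at 72 (6.23 ± 1.52, adjusted p = 0.00666), so its rise lay in replicates 1 and 2, while replicate 3 was barely above the before libraries. The H19 call was lost in both fits of the 6 libraries alone and without the libraries with over 18000 genes detected (adjusted p up to 0.289). Ly6d, a GPI-anchored surface protein, was at 1.25, 0.745 and 0.725 CPM before and 21.2, 127 and 20.8 CPM at 72, high in all 3 and highest in replicate 2 (5.89 ± 1.02, adjusted p = 0.000502). Alpha-fetoprotein, Afp, did not pass the test (2.91, 10.7 and 6.76 CPM before, 4, 4.85 and 7.88 CPM at 72, -0.28 ± 0.53, adjusted p = 0.766). Of 8 tested bile duct genes 3 rose: the collagen receptor Ddr1 (2.29, 2.24 and 2.66 CPM before, 14.9, 15.5 and 6.10 CPM at 72, 2.34 ± 0.36, adjusted p = 0.000166), the keratin Krt19 (1.25, 1.24 and 0.966 CPM before, 5.34, 9.21 and 3.56 CPM at 72, 2.36 ± 0.71) and osteopontin, Spp1 (34.7, 32.8 and 38.6 CPM before, 101, 260.2 and 23.6 CPM at 72, 1.86 ± 0.62). For Spp1 replicate 3 was below the before libraries, so its groups overlapped, and it lost its call without before replicate 1, before replicate 2, before replicate 3, 72 replicate 1 or 72 replicate 2 (adjusted p = 0.0614 to 0.424). Krt19 lost its call without before replicate 1, before replicate 2, before replicate 3 or 72 replicate 2 (adjusted p = 0.0562 to 0.11).

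**Figure D4:**
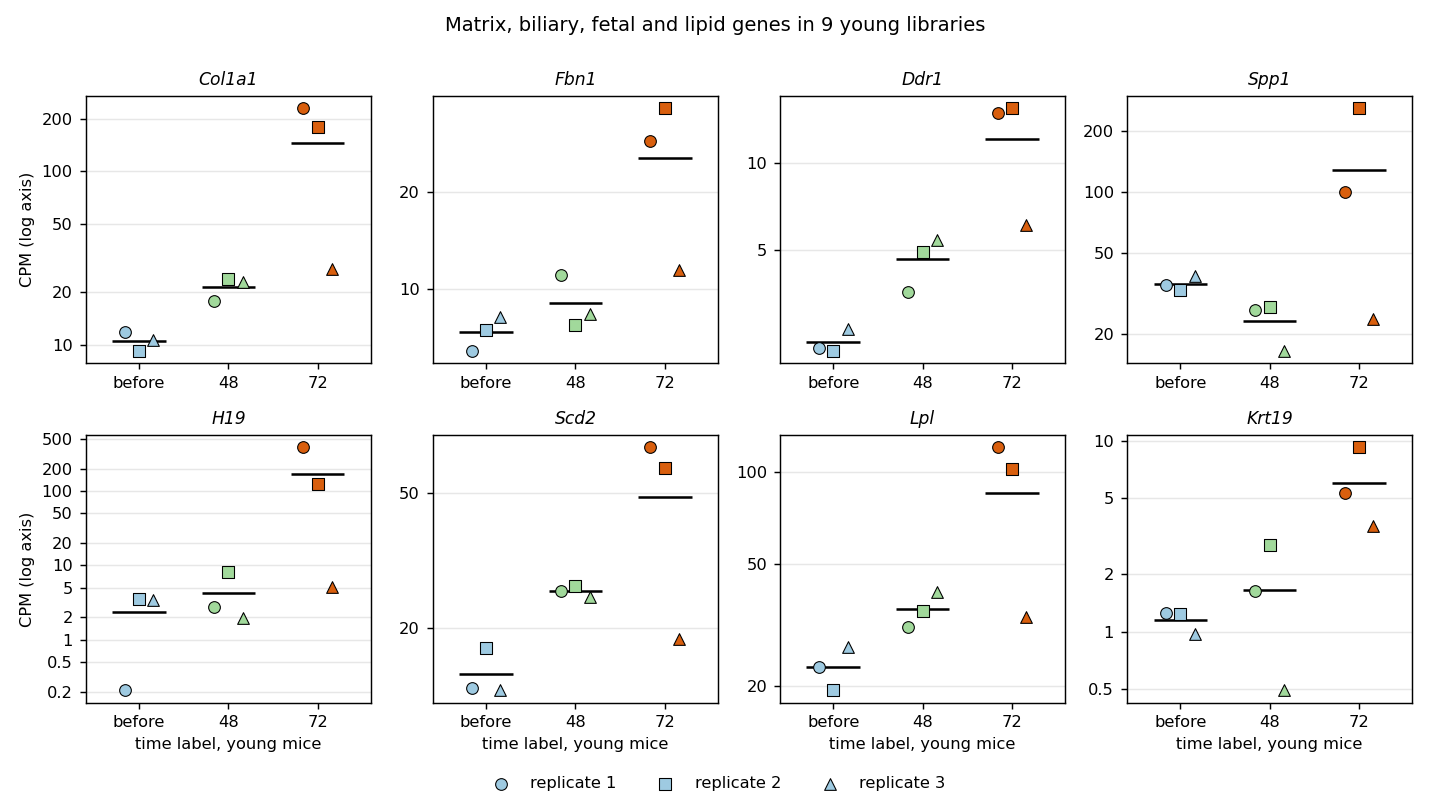
CPM (log axis) of 8 matrix, biliary, fetal and lipid genes in 9 young libraries (before, 48 and 72), with the replicate number as the symbol and the group mean as a line. In every panel replicate 3 at 72 (triangle) is below replicates 1 and 2 at 72, and for H19, Spp1, Scd2 and Lpl it lies within or near the range of the libraries before and at 48.

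Genes of other cell types were called in smaller shares than the matrix genes (58.5% higher). Over all genes tested 9.21% rose and 8.21% fell. Endothelial genes fell in 8 of 34 cases (23.5%) with none higher, and 3 fell without before replicate 2 and 2 without 72 replicate 1. Among the 8 were the sinusoidal genes Oit3 (49.2, 41.7 and 44.9 CPM before, 19.4, 21.8 and 17 CPM at 72, -1.22 ± 0.20, adjusted p = 0.000322), Mrc1 (-1.05 ± 0.22, adjusted p = 0.00154), also found in macrophages, and Fcgr2b (-0.82 ± 0.21). Fcgr2b lost its call without 72 replicate 1 (adjusted p = 0.0602), and the pan-endothelial gene Pecam1 had none (-0.34 ± 0.20, adjusted p = 0.266). The summed endothelial markers were at 329 to 380 CPM before and 231 to 252 CPM at 72. Kupffer cell and monocyte genes rose in 6 of 34 cases (17.6%) and fell in 1 (2.94%). Only 3 rose when any single library other than 72 replicate 3 was left out. Gpnmb, a glycoprotein of lipid-laden macrophages, was at 0.208, 0 and 0.725 CPM before and 21.5, 21.6 and 0.508 CPM at 72, high only in replicates 1 and 2 (5.44 ± 1.46, adjusted p = 0.0114), and its call was lost without before replicate 1 (adjusted p = 0.0528), whereas the Kupffer cell lectin Clec4f had no call (-0.47 ± 0.41, adjusted p = 0.464). Genes of MHC class II presentation fell in 3 of 13 cases, or 23.1% (H2-Ab1 -1.41 ± 0.34, H2-Aa -1.74 ± 0.43, H2-Eb1 -1.23 ± 0.36). H2-Ab1 was at 46.1, 21.1 and 33.3 CPM before and 12.4, 17.7 and 7.63 CPM at 72. Before replicate 1 was the highest library for all 3, and all 3 calls were lost without the libraries with Y-linked transcripts. H2-Eb1 also lost its call without before replicate 1, 72 replicate 2 or 72 replicate 3 (adjusted p = 0.0538 to 0.153). Of 6 neutrophil genes only S100a9 rose (16.7%), from at most 0.248 CPM before to 2.67, 2.18 and 2.03 CPM at 72, a ratio of 15.1 (exact 95% counting interval 3.85 to 130.4). Its call was lost without before replicate 1, before replicate 2, before replicate 3, 72 replicate 1 or 72 replicate 2 (adjusted p = 0.0618 to 0.119). Prtn3, a protease of granulocyte precursors, rose from at most 0.248 CPM to 15.8, 6.79 and 15.3 CPM, a ratio of 83.4 with an exact 95% counting interval of 22.7 to 694. No gene of the T, B and NK cell list (9 tested) or the erythroid list (6 tested) was called, and T cell markers summed to at most 1.45 CPM in any library. The interferon list had 1 of 40 higher and 1 lower.

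Among the remaining large changes, D17H6S56E-5 went from 12.1, 24.8 and 15.9 CPM to 1339, 2058 and 495 CPM (6.21 ± 0.90, adjusted p = 0.000144), with replicate 3 the lowest at 72 and far above every before library. Igdcc4, an immunoglobulin superfamily gene, was at 0.623, 0.497 and 0.242 CPM before and 7.82, 7.52 and 55.9 CPM at 72, and here replicate 3 was the high library (5.59 ± 1.15, adjusted p = 0.00186). Among the falls, the channel gene Hcn3 went from 168, 65.6 and 62.1 CPM to 8.77, 6.55 and 8.39 CPM (-3.63 ± 0.52, adjusted p = 0.000112) with all libraries at 72 alike. Its locus (chr3:89146775-89160284) overlaps that of Pklr (chr3:89136122-89146815), which also fell. Whether RNA of Pklr was counted for Hcn3 was not tested. Fbp2, a fructose bisphosphatase, Prkag3, a subunit of AMP-activated kinase, and Phgdh, the first enzyme of serine synthesis, changed by -4.22 ± 0.86, -3.72 ± 0.63 and -3.62 ± 0.94, the first and last from under 15 CPM. Phgdh lost its call without 72 replicate 2 (adjusted p = 0.0549). Of 17 noncoding RNAs tested 4 rose and none fell. Besides H19 these were the snoRNA hosts Gas5 (1.14 ± 0.26, adjusted p = 0.00293) and Snhg1 (0.93 ± 0.22, adjusted p = 0.00505) and the imprinted antisense RNA Kcnq1ot1 (293, 315 and 365 CPM before, 776, 594 and 686 CPM at 72, 1.08 ± 0.27, adjusted p = 0.00626). Kcnq1ot1 overlaps a gene on the other strand, and whether counting used strand is not given in the sources used here. Hippo pathway and YAP target genes were near background, with Birc5 and Ajuba higher and 3 of 24 lower.

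Set against the young livers at 48, those at 72 differed in 162 genes (1.21% of genes tested), 45 higher (0.335%) and 117 lower (0.871%). This count and its split moved with the settings. It was 336 with DESeq2, 36 under total-count scaling (19 higher and 17 lower), 16 without the libraries with Y-linked transcripts, 1 (higher) when only these 6 libraries were fitted and between 7 and 171 when single libraries were left out (7 without 72 replicate 1 or 48 replicate 1, 14 without 48 replicate 3 and 76 without 72 replicate 3). Without 72 replicate 3 more genes were higher (52) than lower (24), and 0 were higher without 72 replicate 1, 48 replicate 1 or 48 replicate 3. DNA replication genes fell from 48 to 72 in 6 of 49 cases with a median log2 change of -1.05, whereas 45 rose from before to 48 (a comparison with 21.9% of genes tested called, 12.2% higher and 9.79% lower) and 30 from before to 72. Both of the latter use the same before libraries. Pcna was at 115, 106 and 91 CPM at 48, above every library at 72 (-1.22 ± 0.27, adjusted p = 0.0249), and Fen1 at 129, 102 and 126 CPM (-1.41 ± 0.33, adjusted p = 0.0315). In the mitosis list 2 of 69 fell (median -1.20), and Mki67, at 2592, 1401 and 2863 CPM at 48, did not pass the test (-1.06 ± 0.75, adjusted p = 0.498).

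The 4 genes with the smallest p in the step from 48 to 72 were all lower at 72. Lin54, the MuvB subunit that binds the CHR, was at 69.2, 50.9 and 54.1 CPM at 48 and 29.9, 28.4 and 20.3 CPM at 72, while the before libraries were at 23.1, 19.1 and 23.2 CPM (-1.15 ± 0.17, adjusted p = 0.0017). Nxt1, an mRNA export factor, changed by -1.07 ± 0.16, Nfatc2ip by -1.27 ± 0.20 and the heterochromatin protein gene Cbx5 by -0.91 ± 0.15 (adjusted p = 0.0017, 0.00216 and 0.00589). Of 41 matrix genes 7 were higher at 72 than at 48 and none lower, and all 7 calls were lost without 72 replicate 1, 48 replicate 1 or 48 replicate 3. Col1a1 was at 17.8, 23.8 and 22.9 CPM at 48 (2.78 ± 0.66, adjusted p = 0.0362) and Fbn1 at 11.1, 7.75 and 8.37 CPM (1.48 ± 0.33, adjusted p = 0.0252). In both, replicate 3 at 72 lay near the libraries at 48, and replicates 1 and 2 lay far above them. Col1a2, Col3a1, Col5a2, Col6a2 and Mmp2 were the other 5. Dbp was higher at 72 than at 48, where it stood at 3.26, 4.13 and 7.14 CPM (2.98 ± 0.75, adjusted p = 0.0483), and Ddr1 too (1.41 ± 0.33, adjusted p = 0.0342), and both calls were lost without any one of the same 3 libraries. H19, at 2.77, 8.01 and 1.97 CPM at 48, did not pass (5.38 ± 1.42, adjusted p = 0.0593).

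**Figure D5:**
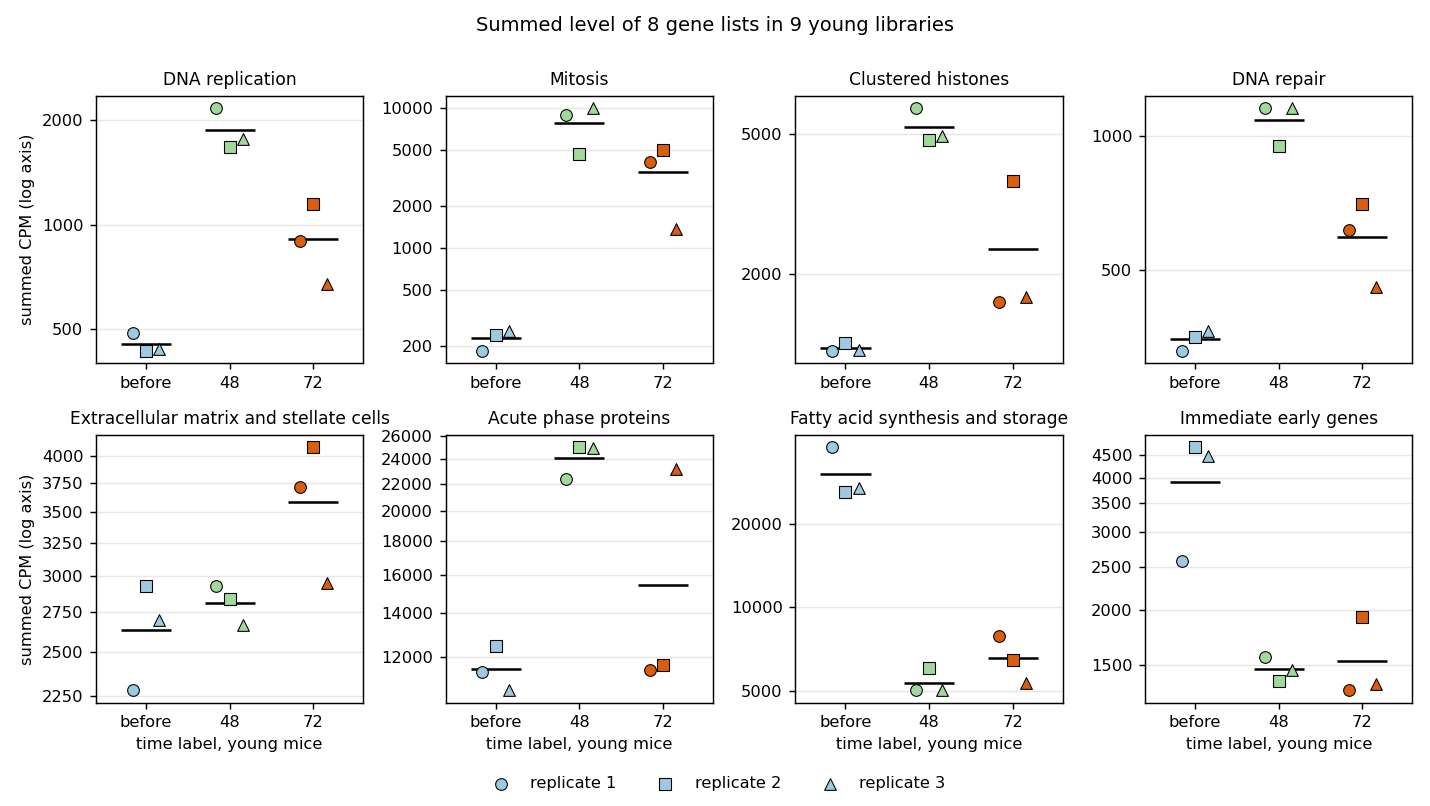
Summed CPM (log axis) of 8 gene lists in 9 young libraries (before, 48 and 72), with the replicate number as the symbol and the group mean as a line. Replication, histone and repair sums at 72 lie below all libraries at 48 and above all before. Matrix sums at 72 are high in replicates 1 and 2, and the acute phase sum at 72 is high in replicate 3.

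The same change from before to 72 was tested for a difference between old and young livers. No gene passed (edgeR quasi-likelihood test, adjusted p under 0.05, 0% of genes tested), 611 had an unadjusted p under 0.05, and DESeq2 gave 0 calls with 581. Without the libraries with Y-linked transcripts 10 genes passed. The change of Mki67 was -0.59 ± 1.07 in old minus young (adjusted p = 1), with 56.7 ± 26.5 CPM before and 1012 ± 400.1 CPM at 72 in old livers (SD, n = 3). For Col1a1 the old livers went from 7.21 ± 2.18 to 17 ± 4.93 CPM, a difference of -2.57 ± 0.99 from the young change that did not pass the test (adjusted p = 1). The histone gene Hist1h2bn stood at 4.93 ± 2.08 CPM in old livers at 72, and its difference was -2.98 ± 1.06 (adjusted p = 1). The list medians of this difference were -0.20 for mitosis, -0.13 for DNA replication, -0.57 for histones and -0.75 for matrix genes, and none of their members passed the test.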

How the data were processed

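Raw counts per gene symbol, 1 table per library, were used as deposited. The submitters' processing notes name bcl2fastq 2.20.0, Trimmomatic 0.39, STAR 2.7.5b, SAMtools 1.10, Picard 2.20.8 and featureCounts, and the builds GRCm38 and mm10, without role or order. Annotation, strand setting and the treatment of reads with several matches are not given in the sources used here, so near-identical copies and overlapping genes are uncertain. Per the labels' protocols, a ribosomal RNA-depleted total RNA kit was used, and different ERCC spike-in mixes were added to young and old samples. No ERCC row was among the 21955 rows used, of which 27 carried date-like symbols. Groups came from the titles.

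All 36 libraries were fitted together, with 1 mean per group (12 groups), by the quasi-likelihood test of edgeR 4.0.16 in R 4.3.3 (TMM scaling, filterByExpr, robust prior) on 13436 genes. Genes were called at a Benjamini-Hochberg adjusted p under 0.05, over all tested genes. The SE of a log2 change was its size divided by the square root of F. The contrasts were young 72 against before, young 72 against 48, and the old change minus the young change. TMM factors of the 6 libraries were 0.930 to 1.13, and the common biological coefficient of variation was 24.7%. Where a group had 3 counts or fewer, ratios have exact 95% intervals, which cover counting error only. In simulated data of 13238 genes, 67, 67 and 66 genes were changed 2-, 4- and 8-fold, in young 72 alone. Of these 61.2%, 94.0% and 98.5% were recovered for young 72 against before, and 8 unchanged genes were called. The real comparison called far more genes (2340), and the cutoff on p depends on that number, so these shares need not hold there. The changed genes were drawn only from those above a minimum expected count, so these shares do not cover genes of low level. Alternatives were total-count and median-of-ratios scaling, DESeq2 1.42.0, other filters, thinning, fits of fewer libraries, a replicate block, Y-linked transcripts as a covariate and leaving out single libraries.

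Named genes were the 12 largest rises and 12 largest falls whose groups did not overlap (mean of at least 1 CPM, over 3 counts per group), the 4 most abundant called genes with 3 counts or fewer in one group, the 3 called members with the smallest p per list and direction (or the member with the highest level where none was called), a fixed set, and the 4 smallest p in the other contrasts. Members of lists named beyond this, such as the Mcm genes, collagens, Lox, G6pc, Slc2a2, Pttg1 and Scd1, were chosen after their values were seen. The comparison, the 42 lists and the fixed set were chosen with earlier results of these data known. The printed promoters came from the genes of 3 lists that rose. Values of some genes in the lists are not reported here.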

Additional observations from a re-analysis of the deposited data

How the results depend on the processing

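For 72 against before, the count of 2340 stayed within 1.5 times under 11 of the 14 settings that leave out no single library, and moved to 1454 when all libraries were thinned to the smallest total, to 1542 when only the 6 libraries were fitted with the replicate block, and to 748 without the libraries with over 18000 genes detected, an alternative chosen after seeing the data. Leaving out single libraries gave 1230 to 2433. For 72 against 48, the count of 162 moved to 36 under total-count scaling, 103 without a filter, 336 with DESeq2, 255 with Y-linked transcripts as a covariate, 16 without the libraries with such transcripts, 15 after thinning and 1 with only the groups compared, and it was 7 to 171 when single libraries were left out. For the age difference, the count of 0 became 1 with that covariate and 10 without those libraries, and 0 to 0 when single libraries were left out. The cause was not tested in any of these.

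Of 178 named genes called at 72 against before, 86 stayed called in every alternative that gave them a value (20, but 18 for Cdk1) and 0 changed sign. Of 19 named genes without a call, 7 changed sign. Cd207 went to 0.113 under total-count scaling and 0.00549 without the libraries with Y-linked transcripts, and ranged from -0.399 to 0.0831 when single libraries were left out. Ccne2 went to 0.0629 and Alb to 0.0291 under total-count scaling, and Ccne2 ranged from -0.374 to 0.182 without single libraries. Myc went to 0.558 without the libraries with Y-linked transcripts and ranged from -1.82 (called, without before replicate 2) to 0.254 (without before replicate 1). Cyp7a1 went to -0.129 without the libraries with Y-linked transcripts and ranged from -0.164 to 0.949 without single libraries. Nxt1 went to -0.275 after thinning, and Afp ranged from -0.658 to 0.206 without single libraries.

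Equal replicate numbers did not pair the samples. The deviations of same-numbered libraries correlated at -0.15, 0.05 and -0.23, and before replicate 1 correlated best with 72 replicate 3 (0.28). These are the libraries with Y-linked transcripts, and whether sex takes part in this correlation was not tested. With the replicate block the count was 2435 for 72 against before and 228 for 72 against 48. Totals of 3730281 to 5143694 counts limit genes of low level, whose recovery was not simulated. In the simulated data the changed genes were drawn only from those above a minimum expected count. Of these, 61.2% of the 67 genes changed 2-fold were recovered, against 94.0% of the 67 changed 4-fold. Far fewer genes were changed there than were called in the real comparison.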

Other observations

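The gene lists held 1398 of the 13436 genes tested, so most genes, called or not, stood outside them. Of these 1398 genes 446 were called, a larger share than the 17.4% over all genes tested. The lists were chosen with earlier results of these data known. Of the 2340 called genes 1894 were on no list, and 787 of these changed by more than 1 on the log2 scale. The genes named here were chosen after their values were seen, as the most abundant in each direction with groups that did not overlap. Lrg1, a secreted glycoprotein, was at 516, 268 and 189 CPM before and 688, 876 and 1622 CPM at 72, with replicate 3 the highest (log2 change 1.71 ± 0.48, edgeR adjusted p = 0.0153). Ppl, the junction protein periplakin, was at 101, 117 and 129.7 CPM before and 514, 762 and 296 CPM at 72, with replicate 3 the lowest (2.18 ± 0.56, adjusted p = 0.00843). The transglutaminase Tgm2 rose by 1.60, the proteoglycan Sdc1 by 1.08, clusterin (Clu) by 1.07 and the exchange factor Net1 by 1.08. Net1 was at 123, 103 and 118 CPM before and 237, 259.7 and 233 CPM at 72, nearly equal within each group (adjusted p = 0.00026).

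On the lower side, Slc25a47, a mitochondrial carrier of the liver, was at 1337, 1492 and 1265 CPM before and 255, 312 and 431 CPM at 72 (-2.04 ± 0.34, adjusted p = 0.000349). A second carrier of that family, Slc25a25, changed by -1.42. Cdo1, which oxidises cysteine, was at 1024, 1482 and 1502 CPM before and 353, 497 and 699 CPM at 72 (-1.37 ± 0.28, adjusted p = 0.00145). The uridine phosphorylase Upp2, the ubiquitin ligase subunit Rmnd5a and the autophagy gene Gabarapl1 changed by -1.98, -1.06 and -1.09. Of these 6 falls, replicate 3 was the highest library at 72 in each.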
